A study of Drosophila virilis and Drosophila willistoni and Drosophila miranda with 119 samples.

Results

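The mRNAs of 5 transcription factors tied to the opening of the early Drosophila genome were examined in 14 species, in up to 13 of them at both stage 2 and stage 5. The genes were vfl, which encodes Zelda, Trl, which encodes the GAGA factor, Stat92E, ttk, which encodes Tramtrack, and grh, which encodes Grainy head. They were taken by gene symbol from the authors' wider ortholog table, which has 17674 genes, and all 5 symbols were found. The table holds 1 FPKM value (read fragments scaled by the length of the transcript and the size of the library) per gene, species and stage, made from 119 single embryos, 55 at stage 5 and 64 at stage 2, with 3 to 7 embryos per species and stage. The embryos of a species and stage are combined in that value, so species served as replicates, and stage 5 and stage 2 values came from different embryos.

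Stage 5 is the cellularizing blastoderm, when the embryo's own genome is broadly transcribed, and stage 2 precedes that transcription, so that its mRNA was laid down by the mother. Stage 5 and stage 2 were both used for D. simulans, D. sechellia, D. mauritiana, D. yakuba, D. santomea and D. erecta of the melanogaster subgroup, for D. ananassae, for D. pseudoobscura, D. persimilis and D. miranda of the obscura group, for D. willistoni, and for D. mojavensis and D. virilis of the subgenus Drosophila. D. melanogaster entered with stage 2 only. Per the labels, raw data were mixed with D. melanogaster at both stages of D. persimilis, D. mojavensis, D. santomea, D. sechellia and D. simulans. In D. virilis this holds for stage 2 alone. All libraries of D. pseudoobscura and D. miranda came from earlier work and are labelled total RNA, against polyA RNA for the other species. The D. miranda embryos came from MSH22 mothers and SP138 fathers, and the D. pseudoobscura embryos from Flagstaff 14 mothers and PP1134 fathers. In each of these species the stage 5 embryos were 3 females and 3 males from late in the stage, and 1 of the D. pseudoobscura stage 2 embryos is noted as possibly unfertilized. The D. santomea values are listed under D. yakuba gene names.

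Before the genome is activated its chromatin is largely closed, and pioneer factors, which can bind DNA wrapped in nucleosomes, make enhancers accessible to other factors. Zelda is the maternally supplied pioneer that marks most of the earliest zygotic genes, and GAGA factor, which binds GA repeats and recruits nucleosome remodellers, keeps a further set of promoters open. Stat92E is the effector of the JAK/STAT pathway and activates early segmentation genes, Tramtrack is a repressor supplied by the mother that holds back pair-rule genes, and Grainy head opens enhancers of epithelial genes.

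Not every factor was valued in every species. Stat92E and ttk had values in all 14 species. The vfl mRNA had no value in D. simulans, D. mauritiana and D. persimilis, Trl had none in D. melanogaster, D. mauritiana and D. persimilis, and grh had none in D. mauritiana and D. miranda. Values of the 6 maternal mRNAs used to check the stage labels summed to between 32.3 and 181 FPKM at stage 5 and between 904 and 1278 FPKM at stage 2. Values of the 8 zygotic mRNAs used in the same way summed to between 700.2 and 2174 FPKM at stage 5 and between 0.0133 and 13.1 FPKM at stage 2, so the 2 stages carried the mRNAs their labels imply in all 13 species. Of other tissues that an egg could carry along, the 8 eggshell, 5 yolk and fat body and 5 testis mRNAs had summed medians under 1 FPKM at both stages, and no species exceeded 8.94 FPKM for any of these lists. The 4 muscle mRNAs did the same by their medians, but reached 143 FPKM in D. mojavensis at stage 5 and 61.6 FPKM in D. mauritiana at stage 2.

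**Figure D1:**
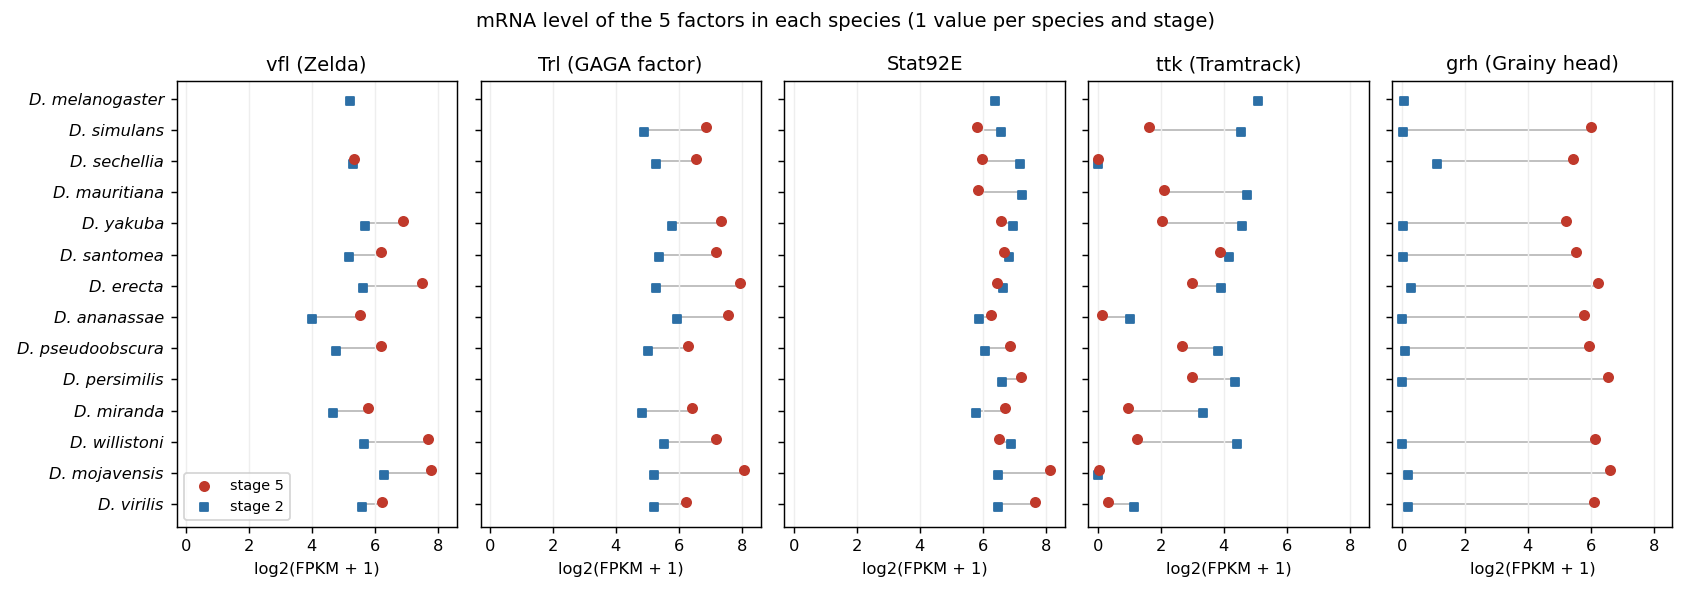
FPKM of the 5 factors on a log2(FPKM + 1) axis, 1 row per species, with red circles for stage 5 and blue squares for stage 2, each 1 value pooled over the embryos of a species and stage. Trl and grh circles lie to the right of every square of the same gene, Stat92E circles fall on either side of the squares, and ttk values lie mostly to the left at stage 5, with medians of 2.09 FPKM at stage 5 and 15.6 FPKM at stage 2.

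Of the 5 factors as deposited, vfl, Trl and grh were called higher at stage 5 than at stage 2, ttk was called lower, and Stat92E was not called. Under other scalings or fits, given below, vfl, Trl and ttk lost their calls in some runs. Stat92E was called lower when columns were brought to equal totals. A gene was called when the adjusted p of limma's test over species (Benjamini-Hochberg over all 7225 genes tested) was under 0.05 and its mean change was at least 1 on the log2(FPKM + 1) scale. By the same rule 30.9% of all genes tested were called higher and 16.5% were called lower at stage 5, so a call in either direction was common. The median change of all genes tested was 0.39. The mean changes of the 5 factors are given as deposited and also after each species' changes were centred on their own median. In whole embryos, fewer cells of a type and less RNA per cell cannot be told apart.

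The level of vfl mRNA was between 39.1 FPKM in D. sechellia and 218 FPKM in D. mojavensis at stage 5, with a median of 72.9 FPKM over 10 species, and between 15.1 FPKM in D. ananassae and 77.6 FPKM in D. mojavensis at stage 2, with a median of 38.4 FPKM over 11 species. Stage 5 was the higher stage in each of the 10 species with both values, although the ranges of the stages overlapped and stage 5 exceeded the highest stage 2 value in 4 species. Of all genes tested, 23.3% were higher at stage 5 in every species valued and 7.27% were lower in every one. The ratio of stage 5 over stage 2 ran from 1.02 in D. sechellia to 4.19 in D. willistoni, with a median of 2.54. The mean change on the log2(FPKM + 1) scale was 1.23 ± 0.59 (SD, n = 10 species; adjusted p = 0.000115, limma). Zelda mRNA was thus present before and after the switch in every species measured, at 1 FPKM or above at both stages. The call rested on the scaling. After centring the mean change was 0.81 (adjusted p = 0.00271, limma), short of the required size of 1. It was −0.13 (higher at stage 5 in 5 of 10 species) with equal totals, a scaling in which genes below 100000 FPKM sum to 1 value in every column. With equal totals 8.89% of all genes tested were called higher and 41.5% lower, and their median change was −0.68. In a fit that allows for shared ancestry by phylogenetic least squares vfl was not called either (1.30, adjusted p = 0.222). In the 3 species labelled as mixed with D. melanogaster at both stages the mean change was 0.83 and was not called. It was 1.66 in the 4 species labelled as unmixed, and the part of the mixing in this difference was not tested.

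Trl mRNA was between 73.8 FPKM in D. virilis and 266 FPKM in D. mojavensis at stage 5, with a median of 143 FPKM over 11 species, and between 27.4 FPKM in D. miranda and 60.6 FPKM in D. ananassae at stage 2, with a median of 37.99 FPKM. The lowest stage 5 value lay above the highest stage 2 value, a separation that 10.3% of all genes tested showed in this direction and 2.73% in the opposite one. The ratio of stage 5 over stage 2 ran from 2.06 in D. virilis to 7.36 in D. mojavensis, with a median of 3.12. The mean change was 1.75 ± 0.56 (SD, n = 11 species; adjusted p = 8.23e-07, limma), and 1.34 after centring. Of genes tested, 16.6% had a smaller SD of the change over species than Trl, near the 18.6% for vfl and 20.1% for grh. With equal totals the mean change of Trl was 0.42 and was no longer called, and 7 of 11 species were higher at stage 5. By phylogenetic least squares the Trl call was lost too (1.74, adjusted p = 0.223).

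Grainy head mRNA was the factor with the widest separation of stages. The level of grh was between 36.4 FPKM in D. yakuba and 98.1 FPKM in D. mojavensis at stage 5, with a median of 64.0 FPKM over 11 species, and between 0.00980 FPKM in D. willistoni and 1.16 FPKM in D. sechellia at stage 2, with a median of 0.0457 FPKM over 12 species. In 11 of the 12 stage 2 columns grh was under 1 FPKM, and D. sechellia was the exception, so the gene passed the filter of a mean of at least 1 FPKM through its stage 5 values. The mean change was 5.78 ± 0.61 (SD, n = 11 species; adjusted p = 1.91e-11, limma), a larger rise than that of 98.6% of genes tested, and 5.37 after centring. Because the pseudocount of 1 compresses values near 0, the mean change was 8.33 with a pseudocount of 0.1. The 5 species labelled as mixed with D. melanogaster at both stages averaged 5.76 and the 4 unmixed species 5.75. By a threshold of 1 FPKM, grh mRNA was present only at stage 5 in 10 of 11 species, whereas vfl, Trl and Stat92E passed it at both stages in every species that valued them.

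Tramtrack mRNA went the other way. The median level of ttk was 2.09 FPKM at stage 5 over 13 species and 15.6 FPKM at stage 2 over 14 species. It was highest in D. santomea at 13.7 FPKM at stage 5 and in D. melanogaster at 33.2 FPKM at stage 2. The lowest values were in D. sechellia, listed at 8.5e-112 FPKM at stage 5 and 4.14e-88 FPKM at stage 2, and D. mojavensis was listed at 0.0204 FPKM at stage 5 and 2.01e-07 FPKM at stage 2. Values this close to 0 can be a failed estimate, so no ratio is given for these species. In the other 11 species ttk was lower at stage 5, by ratios of stage 5 over stage 2 between 0.0658 in D. willistoni and 0.805 in D. santomea, with a median of 0.135. The mean change was −1.47 ± 1.13 (SD, n = 13 species; adjusted p = 0.000566, limma), and −1.74 (adjusted p = 0.000208, limma) without D. sechellia and D. mojavensis, which were left out after their values were seen. With all 13 species the mean change was −1.87 after centring and −2.36 with equal totals, called lower in both. The call was lost by phylogenetic least squares (−1.52, adjusted p = 0.630). At stage 5 ttk was under 1 FPKM in 5 of 13 species, among them D. miranda at 0.921 FPKM, D. virilis at 0.257 FPKM and D. ananassae at 0.107 FPKM. D. ananassae and D. virilis also had little ttk at stage 2, with 1.04 and 1.20 FPKM. In the 5 species mixed at both stages the mean change was −0.92 and was not called, against −2.03 in the 5 unmixed species. D. sechellia and D. mojavensis are both among the mixed species, and the part of the mixing was not tested.

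Stat92E mRNA had no common direction. Its level was between 55.3 FPKM in D. simulans and 281 FPKM in D. mojavensis at stage 5, with a median of 95.0 FPKM over 13 species, and between 54.5 FPKM in D. miranda and 150 FPKM in D. mauritiana at stage 2, with a median of 96.3 FPKM over 14 species. The mean change was 0.08 ± 0.93 (SD, n = 13 species; adjusted p = 0.778, limma), with 6 species higher and 7 lower at stage 5. Its sign depended on the scaling, at −0.32 after centring and −1.24 with equal totals, where it was called lower. Among the 3764 genes valued in all species, Stat92E stood above 83.4% to 93.8% of genes at stage 2, the highest median standing of the 5 factors, and above 68.3% to 92.6% at stage 5.

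**Figure D2:**
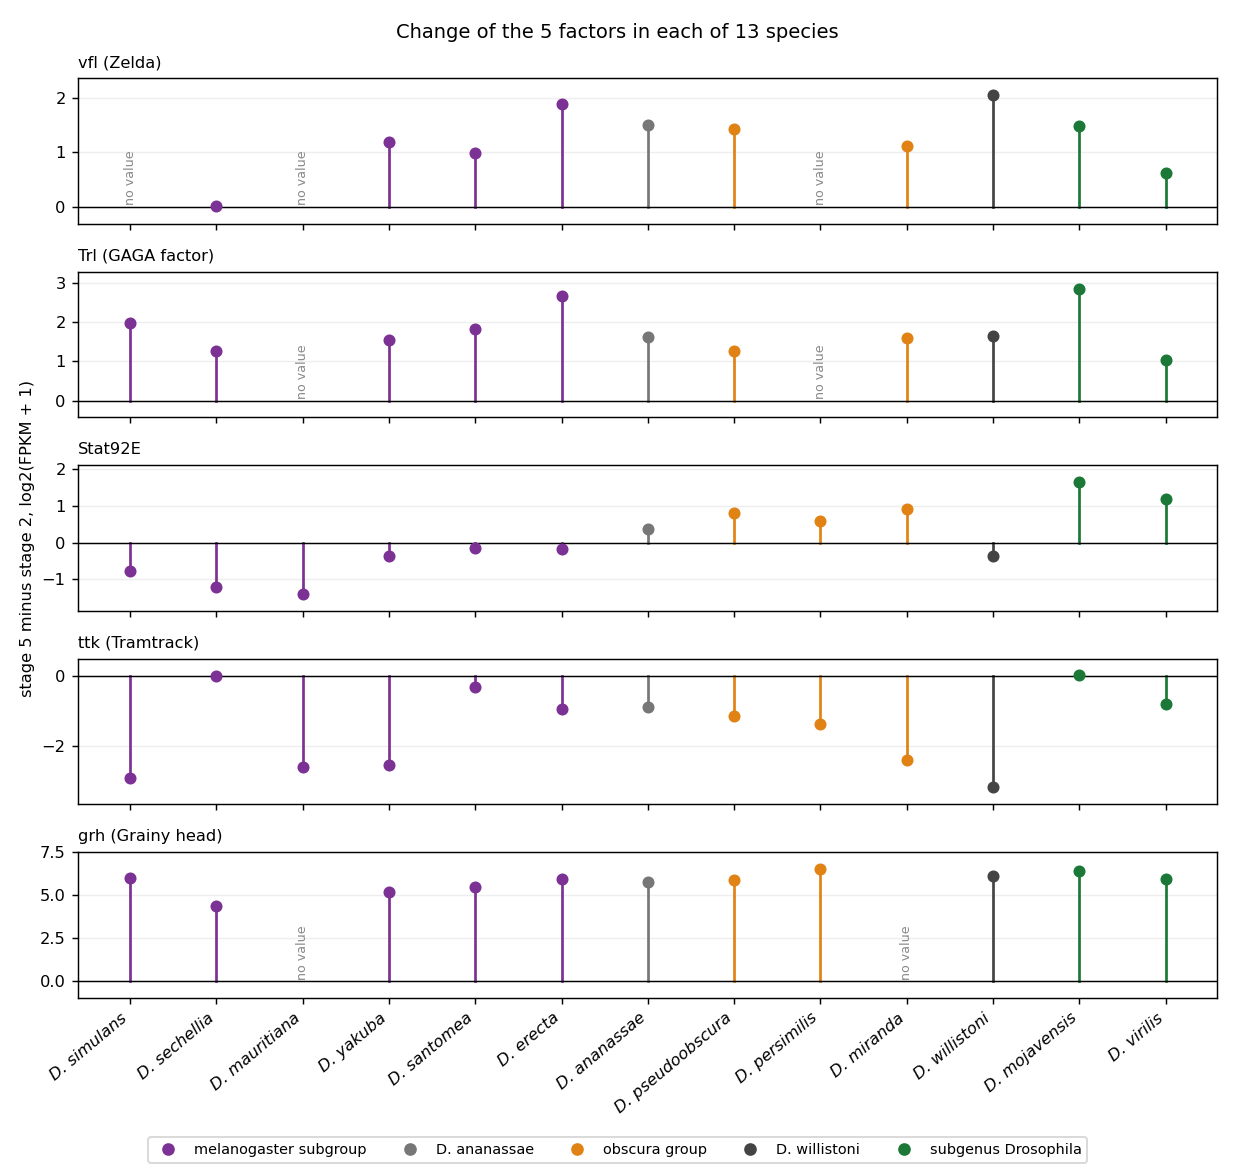
Change of each factor in each of 13 species, stage 5 minus stage 2 in log2(FPKM + 1), with a colour for each clade and 1 point per species. The Stat92E points lie below 0 in the 6 species of the melanogaster subgroup and above 0 in the 3 species of the obscura group and in D. mojavensis and D. virilis, and the grh points all lie above 4.33.

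The change of Stat92E divided by clade. Stage 5 was lower in all 6 species of the melanogaster subgroup, by −1.41 in D. mauritiana, −1.21 in D. sechellia, −0.77 in D. simulans, −0.36 in D. yakuba, −0.19 in D. erecta and −0.15 in D. santomea. It was higher in all 3 species of the obscura group, by 0.91 in D. miranda, 0.80 in D. pseudoobscura and 0.58 in D. persimilis. The share of all genes whose changes split the clades in this way was not counted. D. mojavensis at 1.65, D. virilis at 1.19 and D. ananassae at 0.38 were also higher at stage 5, and D. willistoni, at −0.37, was lower. The mean change was −0.68 in the melanogaster subgroup and 0.76 in the obscura group, a difference of −1.44 ± 0.42 (SE; adjusted p = 0.0341, limma over 7067 genes). Of those genes, 5.97% were called with a higher and 8.97% with a lower change in the melanogaster subgroup. The call was lost when any 1 of the 3 obscura species was left out (adjusted p of 0.0771 to 0.108, limma), and also without D. simulans, D. sechellia or D. mauritiana (0.0580 to 0.0622). It was also lost with equal totals (−1.13, adjusted p = 0.0962), with quantile normalization (−1.12, adjusted p = 0.0727) and with no filter on low values (adjusted p = 0.0503). Both clades hold species labelled as mixed with D. melanogaster, 3 in the melanogaster subgroup and D. persimilis in the obscura group. The part of the mixing was not tested. The total RNA libraries of D. pseudoobscura and D. miranda cannot be told apart from their clade, while D. persimilis, a polyA library, had the lowest change of the 3.

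The levels of Stat92E behind this difference did not pass the test at either stage. With columns centred on their medians, the melanogaster subgroup at stage 5 averaged 1.49 and the obscura group 2.33 on the log2 scale, a difference of −0.85 (adjusted p = 0.149, limma). At stage 2 the averages were 2.10 in the melanogaster subgroup and 1.57 in the obscura group, a difference of 0.53 (adjusted p = 0.0682, limma). Of all genes, 5.19% were called higher and 8.04% lower in the melanogaster subgroup at stage 5, and 4.68% and 5.38% at stage 2. None of the other 4 factors was called by limma in the stage change or in either level, and none of these 12 differences had an unadjusted p under 0.05, which does not show that the clades were alike. The differences in stage change were −0.24 ± 0.54 for vfl, 0.43 ± 0.49 for Trl, 0.09 ± 0.80 for ttk and −0.82 ± 0.57 for grh (SE) on the log2 scale.

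FPKM is scaled by transcript length, so the levels of the factors can be set in order. At stage 5 the medians ran Trl, Stat92E, vfl, grh and ttk, but Trl exceeded Stat92E in 7 of 11 species, Stat92E exceeded vfl in 7 of 10 and vfl exceeded grh in 7 of 9, with mean differences smaller than their SD over species. Only ttk stood apart at that stage: grh exceeded it in 11 of 11 species, by 4.34 ± 1.48 on the log2 scale. At stage 2 the order was Stat92E, vfl, Trl, ttk and grh. Stat92E exceeded vfl in 11 of 11 species, by 1.24 ± 0.48, whereas vfl exceeded Trl in 5 of 10 species and the pair did not differ beyond their spread (−0.07 ± 0.77). Trl exceeded ttk in 11 of 11 species, by 2.49 ± 1.94, and ttk exceeded grh in 10 of 12. The ttk comparisons at both stages include D. sechellia and D. mojavensis, whose ttk values can be a failed estimate. At stage 2 these were the species in which ttk did not exceed grh. D. mojavensis had the highest stage 5 value of vfl, Trl, Stat92E and grh, and it also had the highest vfl at stage 2.

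**Figure D3:**
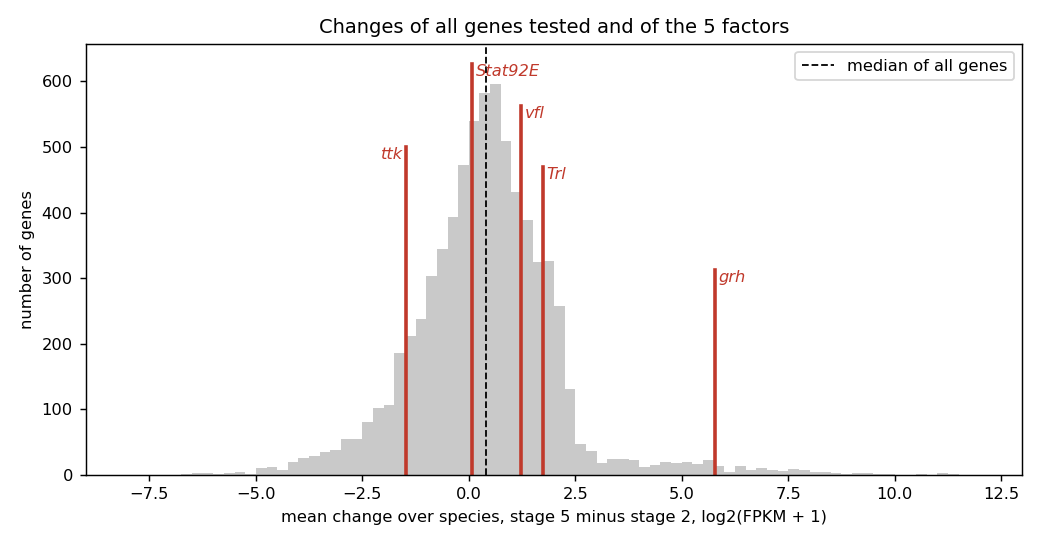
Distribution of the mean change over species of all 7225 genes tested (grey bars, number of genes), with the 5 factors as red lines and the median of all genes, 0.39, as a dashed line. The grh change of 5.78 lies in the right tail, Trl at 1.75 and vfl at 1.23 lie right of the median, Stat92E at 0.08 lies near it and ttk at −1.47 lies to its left.

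Genes that work with the factors are described by their counts under the same fit, to be read beside the 30.9% of all genes called higher, the 16.5% called lower and the median change of 0.39. Early genes known as Zelda targets are given as values only. The list was made of genes known to be transcribed in the blastoderm, it holds all 8 zygotic mRNAs of the stage check, and 22 of its 24 tested genes had a stage 2 median under 1 FPKM and so passed the filter through stage 5, which fixed their direction. The largest changes were those of Z600, an inhibitor of mitosis, at 9.32, of the cellularization gene Sry-alpha at 8.07, of the pair-rule gene ftz at 7.80 and of twi, the mesoderm determinant, at 7.47. The 2 genes with more maternal mRNA were Sxl, the sex determination switch, with medians of 379 FPKM at stage 5 and 27.5 FPKM at stage 2 (change 3.62), and the cellularization gene slam, with 125 FPKM at stage 5 and 43.3 FPKM at stage 2 (change 1.98).

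Other genome activation factors did not share a direction, with 3 of 12 called higher and 4 called lower and a median change of 0.04. Among those that rose were opa, a late-acting pioneer of segmentation, whose medians were 186 FPKM at stage 5 and 0.0569 FPKM at stage 2 (change 7.62), the POU factor gene nub at 4.75 and the Polycomb gene Psc at 1.29. Those that fell included the maternal morphogen genes dl, at 0.701 FPKM at stage 5 and 49.8 FPKM at stage 2 (change −4.55), and bcd at −4.34, with the zinc finger homeobox gene zfh1 at −1.37 and the gene listed as CBP at −1.21. The CBP entry is separate from nej, the fly gene of the acetyltransferase CBP, and may be another gene; without it 3 of 11 were called higher and 3 lower. Clamp, another protein that binds GA repeats, changed by −0.03 ± 0.79 (SD, n = 12 species) and was not called, nor were hb at 0.11 and nej at 0.16. With equal totals, 2 of the 12 were called higher and 9 lower (8 of 11 without CBP), beside 8.89% and 41.5% of all genes.

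Of 13 relatives and partners of GAGA factor, 6 rose and 1 fell, with a median change of 0.64. Those that rose were lolal, a BTB-domain partner of GAGA factor, at 2.41, the remodelling ATPase gene Iswi at 2.39, the Brahma complex genes Bap60 at 2.16 and brm at 1.80, corto at 1.88 and Caf1 at 1.79. Hsp26, a heat shock gene whose promoter GAGA factor occupies, went against them, whose medians were 37.7 FPKM at stage 5 and 842 FPKM at stage 2 (change −4.78). Scaling changed these counts, to 2 called higher (lolal at 1.08 and Iswi at 1.07) and 5 of 13 lower with equal totals. There 8.89% of all genes were called higher and 41.5% lower.

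In the JAK/STAT pathway 4 of 10 genes tested rose (40%, beside 30.9% of all genes) and none fell, and the median change of 0.25 was below the 0.39 of all genes. Of the 4, os and Socs36E had a stage 2 median under 1 FPKM and passed the filter through stage 5, which fixed their direction. The ligand gene os rose by 3.52 ± 0.46 (SD, n = 13 species), with medians of 11.1 FPKM at stage 5 and 0.00485 FPKM at stage 2, and the receptor gene dome rose by 1.98. The feedback inhibitor gene Socs36E rose by 3.96 ± 2.10 and the phosphatase gene Ptp61F by 1.13. The kinase gene hop, at −0.59, and Socs44A, at −0.62, were not called. With equal totals os and Socs36E were still called higher, while hop and Socs44A were among 6 genes called lower. Of all genes, 8.89% were called higher and 41.5% lower by that scaling.

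Of the 8 tested Tramtrack partners and genes of its degradation, a list that also holds Trl, 6 rose, with a median change of 1.86. The adaptor gene phyl, which brings Tramtrack to its ubiquitin ligase, rose by 5.49, with medians of 35.8 FPKM at stage 5 and 0.0217 FPKM at stage 2. The corepressor genes CtBP and gro rose by 2.26 and 1.96, and the remodeller gene Mi-2 rose by 1.96, whereas sina, the ligase gene itself, at 0.51, and ebi, at −0.14, were not called. Of the 5 tested relatives and targets of Grainy head, 4 rose, with a median change of 1.503: crb, a determinant of the apical membrane, at 3.31, the E-cadherin gene shg at 3.02, the kinase gene msn at 1.503 and the junction gene cora at 1.13. The Grainy head relative gem, at 0.50, was not called. Ddc, ple and Fas3, also on this list, fell short of the filter of a mean of at least 1 FPKM and were not tested. Their medians at stage 5 were 0.0725, 0.00727 and 0.272 FPKM, so the count leaves out list genes with little mRNA at either stage. With equal totals, 1 of the 8 (phyl) was called higher and 1 lower (ebi) in the Tramtrack list, and crb and shg were called higher in the Grainy head list. By that scaling 8.89% of all genes were called higher and 41.5% lower. Of the genes called higher, opa, nub, os, Socs36E, phyl and cora had a stage 2 median under 1 FPKM, and so passed the filter through stage 5.

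**Figure D4:**
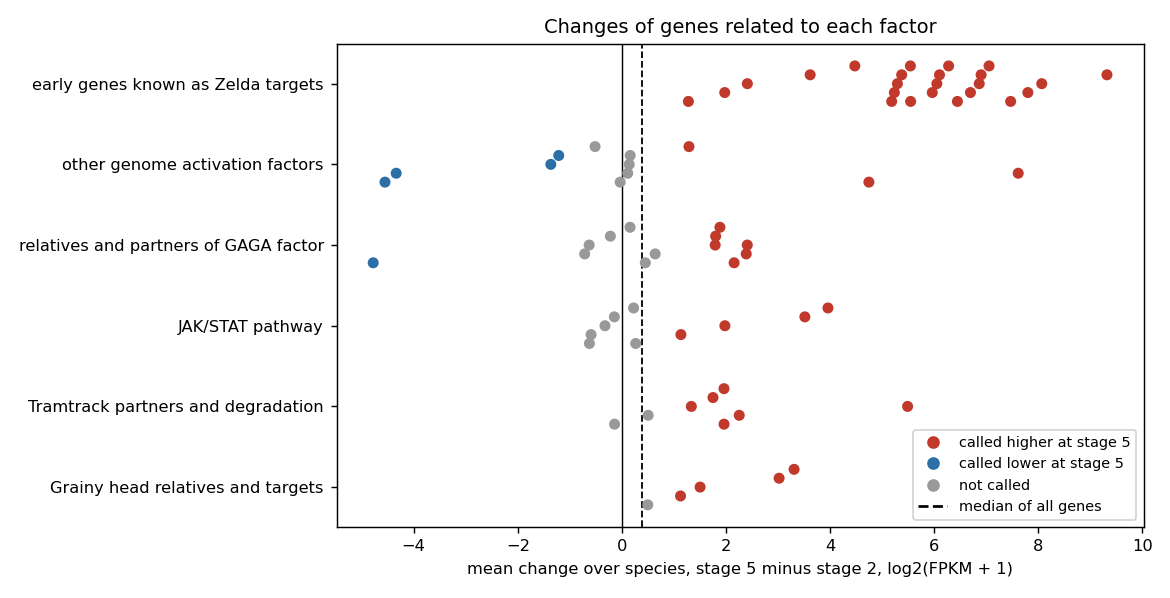
Mean change over species, stage 5 minus stage 2 in log2(FPKM + 1), of each tested gene in 6 lists of genes related to the factors, with red points called higher, blue points called lower, grey points not called, and the median of all genes as a dashed line at 0.39. The 24 Zelda target genes lie to the right of the line, a direction that their choice fixed, and the other genome activation factors lie on both sides. These positions are as deposited. With equal totals 9 of 12 genome activation factors (8 of 11 without CBP) were called lower, beside 41.5% of all genes tested.

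The genes of most similar pattern were sought over the species and stage columns shared with each factor, which all share libraries and stage, so the correlations only describe. For grh these were h, a pair-rule gene, dan and E(spl)m4-BFM, each with r of 0.99 over 23 columns. For Trl they were CG4452 with r of 0.95 over 22 columns, CG8252 with 0.93 over 20 and CG15696 with 0.93 over 22. For vfl they were the bromodomain gene BRWD3 with r of 0.88, loco with 0.87 and the Brahma complex gene osa with 0.85, each over 21 columns. The factors with less common patterns had weaker matches: CG14712 with r of 0.78 over 25 columns, CG5149 with 0.78 over 27 and Drp1 with 0.74 over 23 for Stat92E, and CG43427 with 0.75 over 25, CG3267 with 0.72 over 27 and CG10344 with 0.70 over 27 for ttk.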

How the data were processed

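Single embryos were staged by imaging and their RNA was made into Illumina TruSeq libraries, per the labels' protocols. The submitters' processing notes name cutadapt, TopHat2, Cufflinks, Cuffnorm and Cuffdiff as tools; for their versions and for the builds, nothing was given in the sources used here. The deposited values are taken to be FPKM, which was inferred from these tools and from the values, and the authors combined the embryos of a species and stage into 1 value. Depth is unknown, so no counting interval is given. Headers of the wider table are shifted by 1 column against the values, which was corrected when reading. Its values equal, within a relative tolerance of 1e-09, those of the table of 3764 genes with an ortholog in every species. The 27 columns of listed samples were used, and 2 columns in all (1 per table), D. melanogaster at stage 5, were not used here because they could not be tied to a listed sample. How mixed reads were assigned to a species was not stated.

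The within-species difference of log2(FPKM + 1), stage 5 minus stage 2, was tested with limma 3.58.1 in R 4.3.3 (two-sided, eBayes with a mean-variance trend) for 7225 genes with values in at least 10 species and a mean of at least 1 FPKM, with Benjamini-Hochberg adjustment over all of them. Clades were compared in the same way, with the other species sharing the estimate of spread, and levels with columns centred on their medians. The fits were tested on simulated data. Species share ancestry, which the p-values ignore except where stated, and the spread between embryos enters no test. The members and the gene lists were chosen with earlier results of these data known. Of each list, up to 4 called genes with the largest change and any gene that moved against the others are named by rule, and further genes were added after their values were seen. No sequences of the members were used.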

Additional observations from a re-analysis of the deposited data

Results flagged for a closer look

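In sets of 4 to 10 species, 17 sets of values of the 5 factors were examined for 1 species far from the others, 15 within the melanogaster subgroup and 2 over all species with vfl, and 2 sets held one, where chance gives about 1 in 20. Both concern D. sechellia at stage 2 in the melanogaster subgroup. The level of ttk was 0 on the log2(FPKM + 1) scale in D. sechellia, while the other 6 species of the subgroup lay between 14.1 and 33.2 FPKM. This ttk value is listed at 4.14e-88 FPKM and can be a failed estimate, so the flag need not be a species difference. The level of grh was 1.11 on that scale, or 1.16 FPKM, in D. sechellia, while the other 5 valued species of the subgroup lay between 0.0213 and 0.237 FPKM. The raw data of D. sechellia are labelled as mixed with D. melanogaster at both stages, as are those of D. simulans and D. santomea. The latter species were not singled out, and the part of the mixing was not tested.

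The stage change of Stat92E differed between the melanogaster subgroup and the obscura group by −1.44 on the log2(FPKM + 1) scale, by limma's test of the difference itself (adjusted p = 0.0341). By this test 5.97% of genes were called with a higher and 8.97% with a lower change in the melanogaster subgroup. Stage 5 was lower in 6 of 6 species of the melanogaster subgroup and higher in 3 of 3 of the obscura group. How many of all genes split in this way was not counted. The call was lost in 6 of the 13 fits that left out 1 species (adjusted p of 0.0580 to 0.108), with equal totals, with quantile normalization and with no filter on low values.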

How the results depend on the processing

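Scaling mattered most: column sums of genes below 100000 FPKM were 766099 to 1309341 at stage 5 and 257933 to 465053 at stage 2. The median change of genes valued in all species moved by −0.40 with centring, −0.39 with quantile normalization and −1.07 with equal totals. As deposited, 2232 genes were called higher and 1189 lower, against 1558 and 1683 with centring, 1276 and 1572 with quantile normalization, and 642 and 2997 with equal totals. Among genes valued in all 13 species 1170 were called higher and 637 lower, and by phylogenetic least squares 875 and 139. The change of vfl was 0.81 with centring, 0.62 with quantile normalization, −0.13 with equal totals, 1.30 by phylogenetic least squares and 0.83 in species mixed at both stages, none of them called (adjusted p over all alternatives 0.000105 to 0.541). With centring and quantile normalization vfl had adjusted p of 0.00271 and 0.0064 (limma) and missed the call by its size. Trl lost its call with equal totals (0.42) and by phylogenetic least squares (1.74), with adjusted p of 6.82e-07 to 0.223 over all alternatives. The change of Stat92E was −0.32 with centring, −0.95 with quantile normalization, −1.24 with equal totals, −0.39 in unmixed species and −0.060 without D. pseudoobscura and D. miranda (adjusted p 8.73e-05 to 0.972). The change of ttk lost its call by phylogenetic least squares (−1.52) and in species mixed at both stages (−0.92), with adjusted p of 3.29e-05 to 0.630. Only grh kept its call in every alternative that tested it, at 5.02 to 8.33. It passed the filter through its stage 5 values, which fixed its direction. The fit on genes valued in all 13 species held only Stat92E and ttk among the factors. Exact two-sided sign-flip permutation tests over species, unadjusted, gave p = 0.00195 for vfl and 0.000977 for Trl and grh, the smallest each can give, 0.000977 for ttk and 0.754 for Stat92E. Without 1 species at a time, Stat92E ran from −0.050 to 0.20, reversed without D. mojavensis or D. virilis, and the other 4 factors kept their calls.

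Between the clades, equal totals gave 406 genes with a lower stage change in the melanogaster subgroup and vfl at 0.018, and Stat92E lost its call there (−1.13), with quantile normalization (−1.12) and with no filter on low values (−1.44, adjusted p = 0.0503), within 0.0347 to 0.0962 over these alternatives by limma. The difference between the clades in the stage 2 level of ttk was 0.022 without centring and 0.045 with quantile normalization, against −0.12 in the main fit. Without 1 species at a time, the genes called higher and lower numbered 174 to 495 and 298 to 739 for the stage change, 206 to 363 and 199 to 400 for the stage 2 level, and 173 to 454 and 278 to 651 for the stage 5 level, the low ends without an obscura species. Those fits of the stage change gave −1.55 to −1.30 for Stat92E, −0.53 to 0.089 for vfl and −0.29 to 0.37 for ttk, those of the stage 2 level −0.35 to 0.55 for ttk, and those of the stage 5 level −0.77 to 0.19 for ttk and −0.22 to 0.54 for vfl. With equal totals the median stage 2 levels were 67.0 FPKM for vfl, 64.3 for Trl, 161 for Stat92E and 27.2 for ttk. The cause of these shifts was not tested. No paired analysis was possible because the columns hold pooled embryos and carry no replicate number, other than the pairing of stages within a species that every stage comparison uses. Unknown depth limits all values near 0.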
